A study of Mus musculus with 43 samples.

Results

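Formative and primed epiblast genes were compared between mouse embryonic stem cells labelled MTF2 KO, called knockout cells by that label, and cells labelled Control. The set comprised 8 genes, Otx2, Pou3f1, Zic2, Zic5, Sall2, Fgf5, Lin28a and Lin28b, taken by symbol from a table of 22462 genes, and all 8 symbols were found once. The compared groups were RNA from cells with the genotype MTF2 KO and RNA from cells with the genotype Control, with 3 libraries in each. Both groups were E14 cells (ES-E14TG2a), an HPRT-deficient line derived from a 129 mouse strain, and were grown in serum with LIF on gelatin. How MTF2 was inactivated, and whether the knockout cells were 1 clone, is not stated in the labels or the series design. ChIP-seq of MTF2, SUZ12 and H3K27me3 in the same lines and in rescue lines was not analysed here. The authors' deposited table holds 1 pooled FPKM value per gene and group (fragments scaled to transcript length and library size), so values per library, SD and depth are unknown.

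Naive embryonic stem cells resemble the epiblast before implantation. When they leave that state they pass through a formative stage, in which the homeobox factor OTX2 redirects OCT4 to new enhancers, and then reach a primed state like the epiblast after implantation. Otx2, Pou3f1, Fgf5 and the ZIC genes are commonly used to mark this exit, while LIN28 proteins are RNA-binding proteins of early embryonic cells that block maturation of let-7 microRNAs. MTF2 is a Polycomb-like subunit of Polycomb repressive complex 2 (PRC2), which methylates lysine 27 of histone H3 and acts at CpG-rich promoters. Developmental regulators of the kind listed here are often PRC2 targets.

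Of the 7 members that the authors tested, 1 passed the authors' threshold as higher in knockout cells, 0 passed as lower and 6 did not pass. A call means that the authors' deposited table gives a Cuffdiff q at or under 0.05. Over all 11362 tested genes 12.9% were called, 6.9% higher and 6.03% lower. The called member was Sall2, and the eighth gene, Fgf5, was not tested by the authors. At an unadjusted Cuffdiff p under 0.05, 1 member was higher and 0 lower, where 12.7% of all tested genes were higher and 13% lower. At a q of 0.01, 0 members were called, where 3.86% of all tested genes were higher and 2.96% lower. With p recomputed from the score, 0 members were called, where 0.845% of the 11236 genes with a finite score were higher and 0.258% lower. Ratios here are log2((knockout FPKM + 0.5)/(control FPKM + 0.5)). Their median was 0.23 over the 8 members, 0.12 over the 7 tested members and -0.0035 over the whole set of tested genes. The members thus shared no common direction, with 5 ratios above 0 and 3 below.

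**Figure D1:**
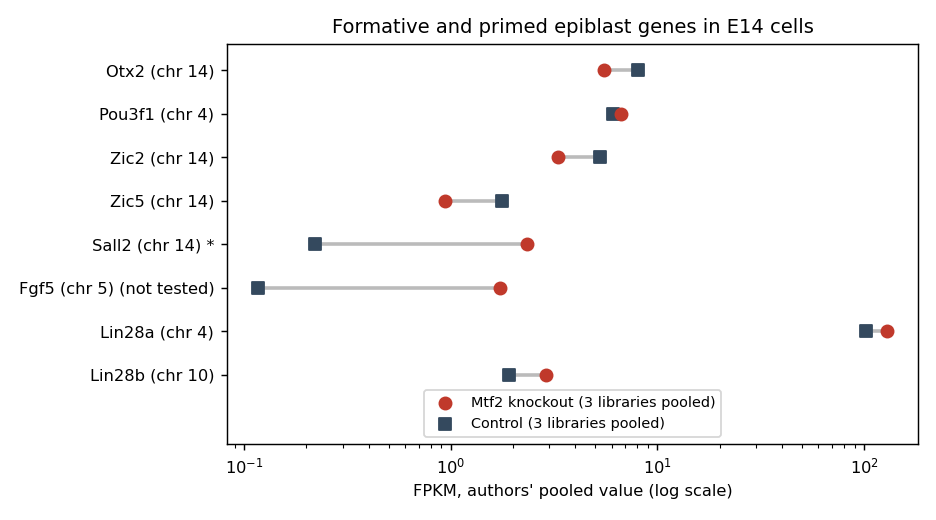
Pooled FPKM of the 8 members on a log axis, with knockout as circles and control as squares. The grey line joins the 2 values of a gene, the asterisk marks the 1 call, and Sall2 and Fgf5 have the longest lines, ending at 2.33 and 1.72 FPKM in knockout cells.

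The set spans a wide range of levels. Lin28a alone made up 84.7% of the members' summed FPKM in knockout cells (153 FPKM in all) and 81.3% in control cells (125 FPKM). In knockout cells the order of levels was Lin28a, Pou3f1, Otx2, Zic2, Lin28b, Sall2, Fgf5 and Zic5. In control cells it was Lin28a, Otx2, Pou3f1, Zic2, Lin28b, Zic5, Sall2 and Fgf5. Without values per library, it cannot be said which neighbours in these orders differ beyond their spread. Pooled RNA also cannot tell fewer cells expressing a gene from less RNA in each cell.

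The labels were checked first. Mtf2 itself stood at 44.7 FPKM in knockout cells and 74.3 FPKM in control cells, and the authors' deposited table gives it a Cuffdiff q of 0.0496, so its transcripts were lower but present. That call was lost when q had to reach 0.01, and also when p was recomputed from the deposited score under a normal distribution and adjusted again (q = 0.755). Whether MTF2 protein was absent was not tested here. The stem cell markers Pou5f1 (1212 FPKM in knockout and 1312 FPKM in control cells), Sox2 (486 FPKM in knockout and 602 FPKM in control cells) and Nanog (90.0 FPKM in knockout and 105 FPKM in control cells) were present in both groups and not called. Markers of primitive endoderm, the extraembryonic layer next to the epiblast, were higher in knockout cells: 14 of 18 tested were called higher and 0 lower. All 21 summed to 1810 FPKM in knockout and 358 FPKM in control cells, with 0 markers listed at 0 in knockout cells and 2, Afp and Ttr, in control cells. The part of such cells' RNA in the values of the members and of the other lists was not tested. On chromosome 14, which carries 4 of the 8 members, the 405 expressed genes (1 FPKM or more in either group) had a median log2 ratio of 0.71, while the medians of the other 19 chromosomes with over 100 such genes lay between -0.09 and 0.11.

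Otx2 encodes a homeobox transcription factor needed for exit from the naive state and later for forebrain formation. It lies at chromosome 14, 48657679 to 48667513 (mm10), on the reverse strand. It stood at 5.48 FPKM in knockout cells and 8.01 FPKM in control cells, a log2 ratio of -0.51, and was not called (Cuffdiff q = 0.455 in the authors' deposited table). Its surroundings went the other way: all 6 expressed genes within 1 Mb had ratios above 0 and 2 were called higher, Ktn1 at 33.6 FPKM in knockout and 7.59 FPKM in control cells and Naa30 at 15.7 FPKM in knockout and 7.78 FPKM in control cells. Among the 6, Tmem260 (1.76 FPKM in knockout and 0.343 FPKM in control cells) counted as expressed only because of its level in knockout cells. Its ratio above 0 was thus fixed by that filter. The Otx2 ratio differed from the chromosome median by -1.22 on the log2 scale, and 90.1% of the other expressed genes on chromosome 14 had a higher ratio.

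Zic2 and Zic5 encode zinc finger transcription factors related to the GLI proteins and lie side by side on chromosome 14. Zic5 spans 122456795 to 122465677 and Zic2 spans 122475435 to 122479852 (mm10), 9.76 kb apart. Zic2 stood at 3.30 FPKM in knockout cells and 5.28 FPKM in control cells (log2 ratio -0.60, Cuffdiff q = 0.342 in the authors' deposited table). Zic5 stood at 0.937 FPKM in knockout cells and 1.76 FPKM in control cells (log2 ratio -0.65, Cuffdiff q = 0.29 in the authors' deposited table). Neither was called, and the level of Zic2 was 3.52 times that of Zic5 in knockout cells and 3 times in control cells. Like Otx2, the pair lay below its surroundings: of the 10 expressed genes within 1 Mb of Zic2, 8 had ratios above 0, and the other two were Zic5 and Timm8a2. The nearest expressed genes on either side of the pair were Clybl, at 26.7 FPKM in knockout and 17.8 FPKM in control cells, and Ggact, at 20.4 FPKM in knockout and 12.3 FPKM in control cells, neither of them called. Set against the chromosome median, the differences were -1.31 for Zic2 and -1.36 for Zic5 on the log2 scale. Zic5 counted as expressed only because of its level in control cells. A ratio below 0 was thus fixed by that filter, and the place of Zic5 among these genes is no test. Of their paralogues, Zic1 (0.856 FPKM in knockout and 0.159 FPKM in control cells) and Zic4 (0.293 FPKM in knockout and 0.0661 FPKM in control cells) were not tested.

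Sall2 rose in knockout cells. It encodes a zinc finger transcription factor of the spalt family and lies at chromosome 14, 52311172 to 52328762 (mm10), on the reverse strand. Its level was 2.33 FPKM in knockout cells and 0.219 FPKM in control cells, which is 10.6-fold higher, and the authors' deposited table lists a log2 fold change of 3.41 with a Cuffdiff q of 0.0321. With the pseudocount of 0.5 the log2 ratio was 1.98. At so low a control value, and without values per library, the size of the change is uncertain. The level stayed modest: in knockout cells 17.8% of all expressed genes lay below it, and in control cells 2.06%. Since 0 tested genes were under 1 FPKM in both groups, a gene this low in control cells was tested only because of its level in knockout cells. Among the 286 tested genes under 0.5 FPKM in control cells, 19.6% were called higher. Sall2 no longer passed when q had to reach 0.01, nor when p was recomputed from the deposited score under a normal distribution (q = 0.394).

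Sall2 also stands in a raised neighbourhood. Of the 384 tested genes on chromosome 14, 30.2% were called higher and 2.6% lower. Within 1 Mb of Sall2, 12 of 13 expressed genes had ratios above 0 and 6 were called higher, with a median log2 ratio of 1.04. They included the m6A methyltransferase gene Mettl3 (58.2 FPKM in knockout and 22.6 FPKM in control cells), the chromatin remodeller gene Chd8 (26.5 FPKM in knockout and 11.5 FPKM in control cells) and Supt16 (83.3 FPKM in knockout and 39.0 FPKM in control cells), a subunit of the histone chaperone FACT. The Sall2 ratio exceeded those of all 13 neighbours, and it was 1.27 above the chromosome median and 0.94 above the neighbour median. Sall2 counted as expressed only because of its level in knockout cells, so a ratio above 0 was fixed by that filter. The same holds for its neighbour AY358078 (1.28 FPKM in knockout and 0.277 FPKM in control cells). For Trav6d-5, at 0 in knockout and 2.29 FPKM in control cells, the filter fixed a ratio below 0. The part of the regional shift in the Sall2 call was not tested. The other SALL genes were not called: Sall4 stood at 58.7 FPKM in knockout and 69.2 FPKM in control cells, Sall1 at 124 FPKM in knockout and 115 FPKM in control cells, and Sall3 at 3.18 FPKM in knockout and 2.45 FPKM in control cells.

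**Figure D2:**
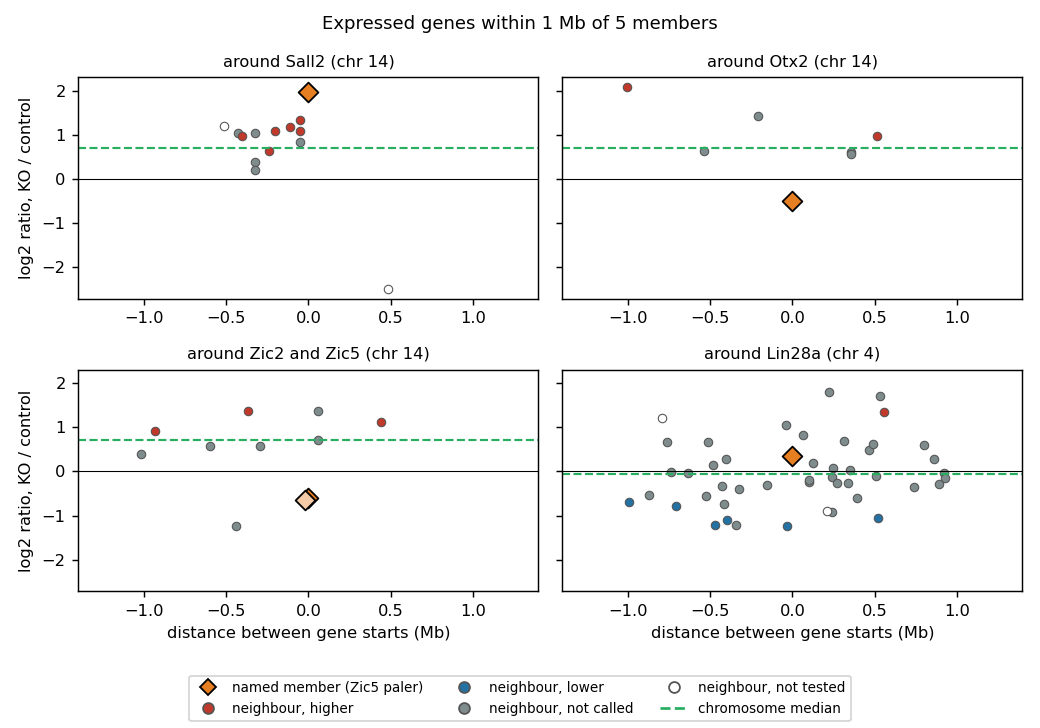
Log2 ratio of expressed genes against the distance between gene starts, for genes within 1 Mb of Sall2, Otx2, Zic2 with Zic5, and Lin28a (diamonds). The dashed line is the median of the chromosome's other expressed genes. On chromosome 14 Sall2 lies above its neighbours, while Otx2, Zic2 and Zic5 lie below most or all of theirs. The signs of the Sall2 and Zic5 ratios were fixed by the filter of 1 FPKM in either group.

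Pou3f1, also known as Oct6, encodes an octamer-binding POU factor of the epiblast after implantation and of neural tissue. It lies at chromosome 4, 124656807 to 124660655 (mm10). Its level was 6.66 FPKM in knockout cells and 6.08 FPKM in control cells, a log2 ratio of 0.12, and it was not called (Cuffdiff q = 0.841 in the authors' deposited table). This was the member nearest to no difference, and its 22 expressed neighbours within 1 Mb had a median log2 ratio of 0.12 as well.

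Fgf5, a secreted fibroblast growth factor and a classical marker of the primed epiblast, was at 1.72 FPKM in knockout cells and 0.117 FPKM in control cells. It lies at chromosome 5, 98254184 to 98277030 (mm10). The 2 pooled values differ 14.6-fold, a log2 ratio of 1.84, but the authors' table gives Fgf5 the status NOTEST, so no test bears on this difference. Such a status was rare at that level: of 575 genes whose higher value lay between 1.5 and 2 FPKM, 96.7% were tested. The expressed genes of chromosome 5 had a median log2 ratio of -0.09, and 1.87% of them had a higher ratio than Fgf5. Fgf5 counted as expressed only because of its level in knockout cells. With its control value, a ratio above 0 was thus fixed by that filter, and its place among these genes is no test. Among genes of FGF signalling, Fgf4, the ligand that starts exit from the naive state, stood at 57.5 FPKM in knockout and 61.4 FPKM in control cells, and its receptor gene Fgfr1 at 22.5 FPKM in knockout and 14.9 FPKM in control cells. Neither was called, and Fgfr3, at 4.34 FPKM in knockout and 0.366 FPKM in control cells, was not called either (Cuffdiff q = 0.257 in the authors' deposited table).

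Since the series concerns PRC2 at CpG islands, the promoter windows of the members were read from RefSeq (GRCm38.p6), each running from 250 bases before to 50 bases after a transcript start. Of the 8 members, 6 had an entry, with 10 starts in all, and Pou3f1 and Zic2 are named only. The windows below belong to the members with the largest ratios, Sall2 and Fgf5, and to the first listed start of Otx2 and the start of Zic5, both members with ratios below 0. Every CpG is in capitals.
Sall2 start 1 (chr14:52328621-52328920, minus strand): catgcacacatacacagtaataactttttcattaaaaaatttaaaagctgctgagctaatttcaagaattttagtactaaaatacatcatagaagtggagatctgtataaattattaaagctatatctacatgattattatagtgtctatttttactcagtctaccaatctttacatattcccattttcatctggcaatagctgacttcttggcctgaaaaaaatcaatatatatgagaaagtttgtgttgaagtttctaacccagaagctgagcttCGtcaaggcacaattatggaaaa
Sall2 start 2 (chr14:52316274-52316573, minus strand): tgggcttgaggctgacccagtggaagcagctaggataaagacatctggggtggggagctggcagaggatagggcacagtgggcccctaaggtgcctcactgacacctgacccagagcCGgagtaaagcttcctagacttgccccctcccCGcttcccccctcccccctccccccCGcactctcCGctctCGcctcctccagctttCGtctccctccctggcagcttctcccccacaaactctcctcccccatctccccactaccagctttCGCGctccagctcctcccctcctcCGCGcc
Fgf5 (chr5:98253934-98254233, plus strand): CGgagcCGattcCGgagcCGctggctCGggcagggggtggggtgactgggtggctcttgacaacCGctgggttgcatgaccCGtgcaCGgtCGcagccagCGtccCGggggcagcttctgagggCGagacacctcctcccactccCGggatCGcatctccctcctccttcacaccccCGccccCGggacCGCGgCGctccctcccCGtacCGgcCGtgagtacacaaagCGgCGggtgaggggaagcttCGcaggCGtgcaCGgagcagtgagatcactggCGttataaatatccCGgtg
Otx2 start 1 (chr14:48667595-48667894, minus strand): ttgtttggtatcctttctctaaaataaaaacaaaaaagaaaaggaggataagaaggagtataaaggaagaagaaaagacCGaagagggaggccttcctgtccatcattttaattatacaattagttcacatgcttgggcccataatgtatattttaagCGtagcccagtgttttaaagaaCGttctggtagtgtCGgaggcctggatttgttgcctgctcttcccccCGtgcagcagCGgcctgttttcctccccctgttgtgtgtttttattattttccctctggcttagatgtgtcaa
Zic5 (chr14:122465609-122465908, minus strand): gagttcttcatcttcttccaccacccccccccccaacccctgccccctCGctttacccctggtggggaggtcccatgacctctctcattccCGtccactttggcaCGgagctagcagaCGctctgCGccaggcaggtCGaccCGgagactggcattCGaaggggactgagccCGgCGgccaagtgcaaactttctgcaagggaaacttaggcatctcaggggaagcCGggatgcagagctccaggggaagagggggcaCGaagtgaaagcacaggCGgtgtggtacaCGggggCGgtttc

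The members with the largest ratios differed widely in CpG content. Sall2 start 1 held 1 CpG in an A and T rich window (30.3% G and C), and Sall2 start 2 held 10 CpGs at 65% G and C. The Fgf5 window held 29 CpGs, more than 74% of the 11278 promoter windows of tested genes. Among those windows the median was 21 CpGs, with quartiles of 13 and 29. The 4 Otx2 starts, of which the windows of starts 1 and 2 overlap, held 6 to 16 CpGs, Zic5 held 15, Lin28a held 10 and Lin28b held 8. Among the 6 members with an entry, Fgf5 was thus the 1 above the median. Below it lay 9 of the 10 member windows, the 4 of Otx2 among them. The files do not say which start was used, and a window of 300 bases does not measure a whole CpG island. Over all genes, the median was 20 CpGs for windows of genes called higher and 22 for windows of genes called lower.

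Short motifs were also counted on both strands. The POU octamer ATGCAAAT was in 0 of the 10 member windows and in 1.22% of windows of tested genes. TAATCC, the core bound by OTX proteins, was in 1 member window, Otx2 start 3, and in 5.44% of windows of tested genes. TATAAA was in 3 member windows, those of Fgf5, Otx2 start 1 and Sall2 start 1, and in 6.59% of windows of tested genes. These matches describe letters in the windows and no more.

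**Figure D3:**
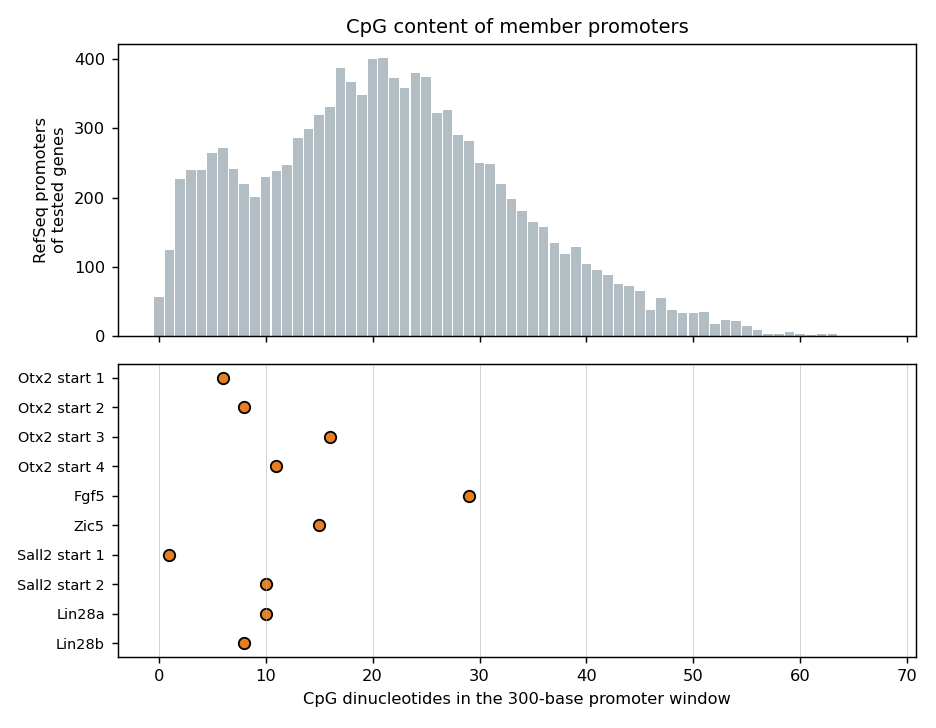
Number of CpG dinucleotides in 300-base promoter windows. The upper panel counts the RefSeq windows of tested genes and the lower panel places the 10 member windows on the same axis, from 1 CpG at Sall2 start 1 to 29 at Fgf5.

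Lin28a and Lin28b encode paralogous RNA-binding proteins with a cold shock domain and zinc knuckles. Lin28a lies at chromosome 4, 134003330 to 134018841, and Lin28b at chromosome 10, 45376620 to 45470201 (mm10). Lin28a stood at 129 FPKM in knockout cells and 102 FPKM in control cells (log2 ratio 0.34, Cuffdiff q = 0.312 in the authors' deposited table). Lin28b stood at 2.89 FPKM in knockout cells and 1.91 FPKM in control cells (log2 ratio 0.49, Cuffdiff q = 0.391 in the authors' deposited table). Neither was called, and Lin28a was the dominant paralogue, at 44.7 times the FPKM of Lin28b in knockout cells and 53.3 times in control cells. Around Lin28a, 6 of the 46 expressed genes within 1 Mb were called lower and 1 higher, and the neighbour median was -0.13. The nearest expressed gene, Dhdds, fell to 12.0 FPKM in knockout cells, against 28.9 FPKM in control cells (Cuffdiff q = 0.0107 in the authors' deposited table).

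LIN28 proteins hold back the let-7 family by binding its precursors, in many cases at a GGAG motif in the terminal loop region, and mature let-7 silences messenger RNAs that match its seed. The let-7g hairpin and 2 mature members from RefSeq (GRCm38.p6) show both elements, with GGAG in capitals in the hairpin and the seed, bases 2 to 8, in capitals in the mature forms. GGAG occurred in 9 of 11 let-7 hairpins, and all 8 mature 5p forms shared the seed GAGGUAG.
let-7g hairpin (chr9:106178840-106178927, plus strand): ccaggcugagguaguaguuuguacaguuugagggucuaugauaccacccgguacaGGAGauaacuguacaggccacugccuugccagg
let-7g-5p: uGAGGUAGuaguuuguacaguu
let-7a-5p: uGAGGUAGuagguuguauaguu

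Levels of let-7 itself were not analysed here, since the table lists 0 genes with a Mirlet7 symbol. Genes of the pathway were mostly not called, which also holds for the whole table, where 6.9% of tested genes were higher and 6.03% lower. The shares here were near these, with 10% of processing genes lower and 5.56% of targets higher. The counts thus show nothing particular to the pathway. Of 10 tested genes for let-7 processing and decay, 1 was lower, 0 were higher and 9 did not pass, and their median log2 ratio was -0.07. The call was Tarbp2, a partner of Dicer, which fell to 43.0 FPKM in knockout cells, against 83.9 FPKM in control cells (Cuffdiff q = 0.00518 in the authors' deposited table). Of 18 tested let-7 target genes, Lin28a and Lin28b among them, 1 was higher, 0 were lower and 17 did not pass, and their median was 0.09. At an unadjusted Cuffdiff p under 0.05, 2 of the targets were higher and 2 lower. At that p, 12.7% of all tested genes were higher and 13% lower. The call among the targets was the cyclin gene Ccnd2, at 32.5 FPKM in knockout and 3.90 FPKM in control cells (Cuffdiff q = 0.0137 in the authors' deposited table). Ccnd2 did not pass when q had to reach 0.01, Tarbp2 did not change 2-fold, and neither Ccnd2 (q = 0.256) nor Tarbp2 (q = 0.498) passed with p recomputed from the score. Targets that did not pass included Hmga2 (40.1 FPKM in knockout and 31.1 FPKM in control cells) and Igf2bp1 (67.8 FPKM in knockout and 97.8 FPKM in control cells).

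Other genes used as formative or primed markers changed in both directions. Of 25 such genes the authors tested 21, and 4 were higher, 8 were lower and 9 did not pass. That is 19% higher and 38.1% lower, against 6.9% and 6.03% of all tested genes. This list, like the other gene lists here, was chosen with earlier results of these data known. The shares are therefore a description and no test of the list. The median log2 ratio was -0.50 over the 21 tested genes and -0.15 over all 25, with 12 ratios above 0 and 13 below, and 0 of the genes lie on chromosome 14. With p recomputed from the score, 1 of the higher calls (Cldn6) and 3 of the lower calls (Dnmt3a, Tcf15 and Sox4) still passed.

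The largest lower call was the de novo DNA methyltransferase gene Dnmt3a, which fell to 22.7 FPKM in knockout cells, against 100 FPKM in control cells (log2 ratio -2.12, Cuffdiff q = 0.0012 in the authors' deposited table). Tcf15, a basic helix-loop-helix factor that primes naive cells for differentiation, fell to 45.8 FPKM in knockout cells, against 150 FPKM in control cells (log2 ratio -1.70, Cuffdiff q = 0.0012 in the authors' deposited table). Sox4 fell to 11.5 FPKM in knockout cells, against 37.6 FPKM in control cells, with the same q. The remaining lower calls were smaller, with log2 ratios of -0.86 to -0.70: the FGF-responsive ETS factors Etv4 and Etv5, the TEA domain factor Tead2, the forkhead factor Foxd3 and the chromatin factor Utf1. Dnmt3b, the other de novo methyltransferase gene, stood at 36.1 FPKM in knockout and 52.5 FPKM in control cells and was not called.

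Higher calls in this wider list were led by Cldn6, a tight junction gene, which rose to 74.9 FPKM in knockout cells, against 4.71 FPKM in control cells (log2 ratio 3.86, Cuffdiff q = 0.0012 in the authors' deposited table). Grhl2, a regulator of epithelial enhancers, rose to 6.33 FPKM in knockout cells, against 0.880 FPKM in control cells (log2 ratio 2.31, Cuffdiff q = 0.0302 in the authors' deposited table). Like Sall2, Grhl2 was under 1 FPKM in control cells and so was tested only because of its level in knockout cells, and it did not pass when q had to reach 0.01 or with p recomputed from the score (q = 0.346). The Nodal inhibitor gene Lefty2 rose to 12.8 FPKM in knockout cells, against 3.53 FPKM in control cells, and the Nodal co-receptor gene Tdgf1 to 70.6 FPKM, against 41.3 FPKM in control cells. Of 7 tested trophectoderm marker genes, the epithelial keratins among them, 3 were called higher in knockout cells and 1, Tfap2c, lower: Krt8 stood at 52.9 FPKM in knockout and 6.11 FPKM in control cells, Krt18 at 117 FPKM in knockout and 9.55 FPKM in control cells, and Gata2 at 4.74 FPKM in knockout and 0.547 FPKM in control cells. Those calls are 42.9% higher and 14.3% lower, against 6.9% and 6.03% of all tested genes. Cdx2 stood at 0.798 FPKM in knockout and 0.573 FPKM in control cells. Gata3 stood at 0.999 FPKM in knockout and 0.906 FPKM in control cells. Neither was tested, nor was Elf5, at 0.645 FPKM in control cells. Krt18 and Krt8 were the highest of the 10 markers in knockout cells. All 10 trophectoderm markers summed to 225 FPKM in knockout and 63.9 FPKM in control cells, with 1, Elf5, listed at 0 in knockout cells and 0 markers listed at 0 in control cells. Their part in the Cldn6 and Grhl2 values, and that of the primitive endoderm markers, was not tested. Nodal itself, at 30.7 FPKM in knockout and 43.8 FPKM in control cells, was not called.

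**Figure D4:**
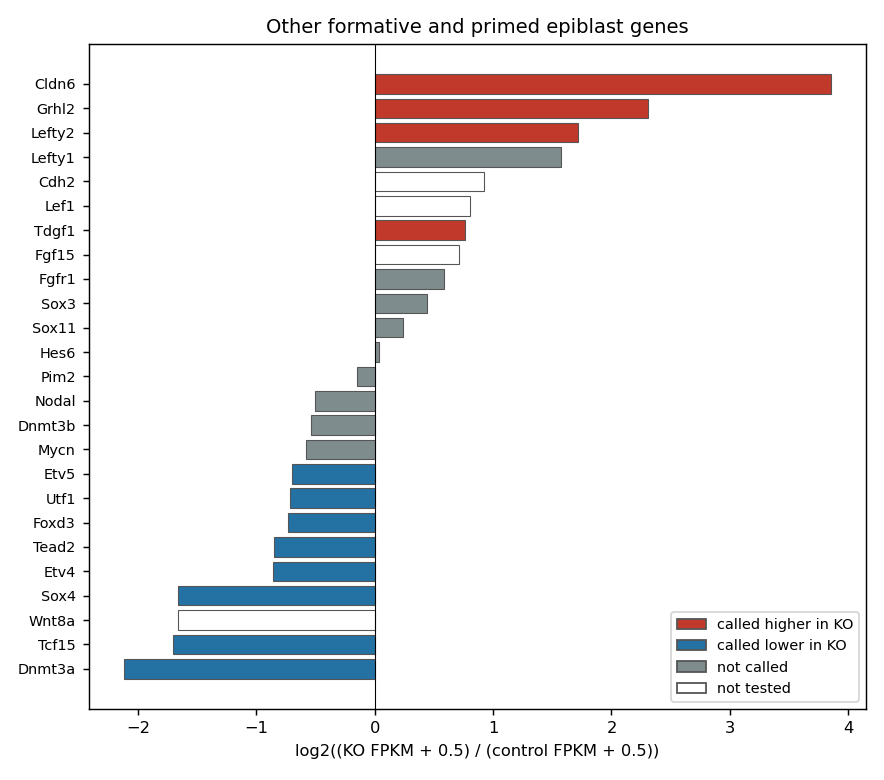
Log2 ratio of the 25 other formative and primed genes, sorted by value. Bars above 0 are higher in knockout cells. The colours give the authors' calls, 4 higher and 8 lower, and white bars are genes the authors did not test.

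The states on either side of the formative stage were read in the same way. Of 19 tested naive genes 2 were higher, 0 were lower and 17 did not pass, and their median log2 ratio was -0.01. At an unadjusted Cuffdiff p under 0.05, 2 naive genes were higher and 2 lower. At that p, 12.7% of all tested genes were higher and 13% lower. The calls were Klf5, on chromosome 14, at 522 FPKM in knockout and 305 FPKM in control cells, and Tfcp2l1, at 60.8 FPKM in knockout and 34.0 FPKM in control cells. Neither passed with p recomputed from the score (q = 0.567 for Klf5 and 0.441 for Tfcp2l1) or changed 2-fold. Among 8 genes of general pluripotency, L1td1 (262 FPKM in knockout and 136 FPKM in control cells) and Tdgf1 were called higher. Tdgf1 was already counted in the wider formative and primed list. L1td1 (q = 0.324) and Tdgf1 (q = 0.658) likewise did not pass with p recomputed from the score or change 2-fold. Over all tested genes 6.9% were called higher and 6.03% lower. Of 12 primitive streak genes, 3 were tested and 0 were called, with 0 at an unadjusted Cuffdiff p under 0.05 in either direction. Eomes stood at 3.90 FPKM in knockout and 6.07 FPKM in control cells, and T, also called Brachyury, at 1.94 FPKM in knockout and 3.91 FPKM in control cells. Of 12 neural genes, 4 were tested and 0 were called, with 1 higher at an unadjusted Cuffdiff p under 0.05.

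**Figure D5:**
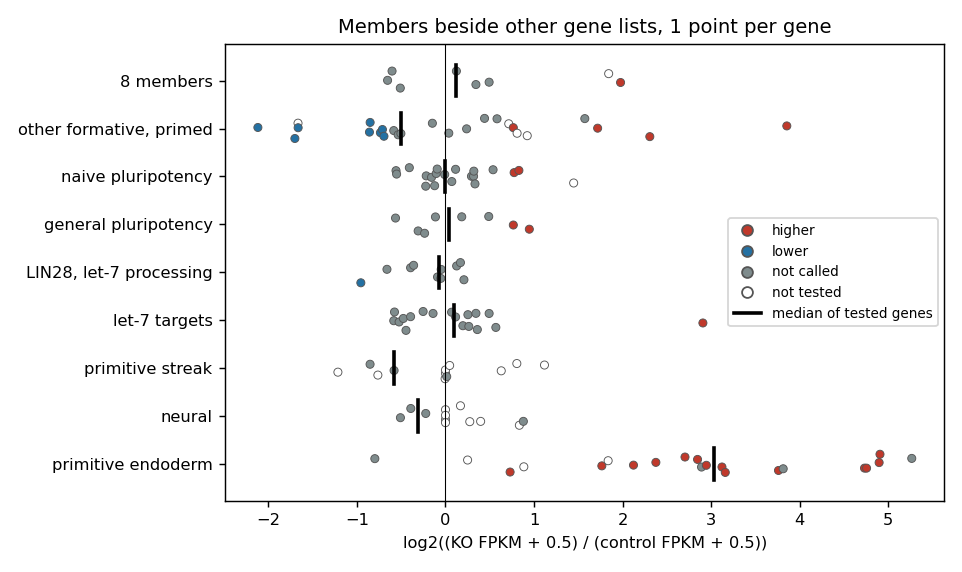
Log2 ratio of each gene in 9 lists, 1 point per gene, coloured by the authors' call, with the median of the tested genes of each list as a black bar. That median was 0.12 for the members, -0.50 for the other formative and primed genes, -0.58 for the 3 tested streak genes, -0.31 for the 4 tested neural genes and 3.03 for primitive endoderm.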

How the data were processed

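RNA was measured in 3 MTF2 KO and 3 Control libraries made from polyadenylated RNA, per the labels' protocols. Per the submitters' processing notes, the tools were Cuffdiff 2.2.1.3, TopHat2 2.1.0, Bowtie 1.0 and deepTools, and mm10 and mm9 are both named; the step each served is not stated. The authors deposited 1 pooled FPKM per gene and group, a log2 fold change (knockout over control), a p-value, a q-value and a test statistic (a score), per the file headers. Against RefSeq entries of the same symbol (GRCm38.p6), 70.1% of genes had both ends within 2 kb, so coordinates are given as mm10, with starts made 1-based. Computed here with Python 3.11.15, pandas 2.3.3, numpy 2.4.6 and scipy 1.17.1 were the ratio with a pseudocount of 0.5 FPKM, medians over expressed genes (1 FPKM or more in either group) by chromosome and within 1 Mb, list counts, and CpG counts. The adjustment and medians were tested on simulated data. Calls are the authors' (status OK, q at or under 0.05). No test over libraries was possible.

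Members and gene lists were chosen with earlier results of these data known. The naming rule took the members, Mtf2, Pou5f1, Sox2, Nanog, expressed paralogues, in each list at most the 3 largest calls in either direction, and the 2 genes nearest in level to each called member. Neighbouring genes and further list genes were chosen after seeing their values. Some list genes are not reported here. Depth is unknown.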

Additional observations from a re-analysis of the deposited data

How the results depend on the processing

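Each choice was changed in turn. The 1 higher call among the members became 0 at a q of 0.01, 0 with an FPKM minimum of 5 in either group, and 0 when p was recomputed from the deposited score under a normal distribution (126 tested genes have no finite statistic). It became 0 without chromosome 14, an alternative chosen after seeing the data, because Sall2 lies there. In the wider formative and primed list, the 4 higher calls became 2 at a q of 0.01 and 1 with the normal p. Its 8 lower calls became 5 at a q of 0.01, 3 with a 2-fold minimum and 3 with the normal p. Over all tested genes, the 784 higher and 685 lower calls became 439 and 336 at a q of 0.01, 567 and 332 with a 2-fold minimum, and 95 and 29 with the normal p. The median ratio of the members ranged from 0.05 (minus the 1 Mb median) to 0.28 (minus the chromosome median).

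Sall2 had a log2 ratio of 2.93 with a pseudocount of 0.1 and 1.45 with 1, and Fgf5 3.06 and 1.28. Centring on chromosome or neighbour medians moved the 4 members of chromosome 14 by over 1.5-fold and turned no sign there. Pou3f1 centred on its neighbours was -0.0005. No paired analysis was possible because the values are pooled over libraries, and no library could be left out for the same reason. Which calls depend on 1 library is therefore unknown.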

Other observations

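Among the 15 POU genes, 8 were tested, and 1 was called: Pou4f2, a POU factor of retinal and sensory neurons, at 6.56 FPKM in knockout and 1.60 FPKM in control cells (Cuffdiff q = 0.00835 in the authors' deposited table). That is 12.5% of the tested POU genes called higher, against 6.9% of all tested genes. Pou4f2 did not pass with p recomputed from the score (q = 0.382). Pou2f1, which encodes OCT1, stood at 35.1 FPKM in knockout and 45.5 FPKM in control cells and was not called. Pou3f3 (0.810 FPKM in knockout and 0.168 FPKM in control cells) and Pou3f2 (0.0664 FPKM in knockout and 0.0931 FPKM in control cells), the close paralogues of Pou3f1, were not tested. Otx1 was listed at 0 in control cells and at 0.0876 FPKM in knockout cells, and Crx was listed at 0 in both groups.

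The 2 tested genes nearest to Sall2 in level, by distance over the 2 pooled values, were Cd59a (2.32 FPKM in knockout and 0.208 FPKM in control cells) and Bbs7 (2.41 FPKM in knockout and 0.237 FPKM in control cells). Neither was called, with Cuffdiff q of 0.453 and 0.502 in the authors' deposited table, although their pooled values were close to those of Sall2. Of 4 tested fibroblast genes, 1 was called higher and 1 lower, where 6.9% of all tested genes were higher and 6.03% lower. The higher call, Thbs1 (1.78 FPKM in knockout and 0.178 FPKM in control cells), was tested only because of its level in knockout cells. The lower call was Fbln1 (18.5 FPKM in knockout and 38.9 FPKM in control cells). Neither passed with p recomputed from the score (q = 0.464 for Thbs1 and 0.404 for Fbln1).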
